A study of Saccharomyces cerevisiae with 236 samples.

Results

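Nucleotide excision repair (NER) removes bulky, helix-distorting lesions from DNA. Damage is recognised, the helix is opened around it, the damaged strand is cut on both sides, and the gap is filled. In budding yeast Rad4 with Rad23 and Rad33 recognises damage, Rad14 binds at the lesion, Rad2 cuts on the 3′ side and the Rad1-Rad10 nuclease cuts on the 5′ side. Rad7 and Rad16 serve repair of transcriptionally silent DNA, and Rad26, a Swi2/Snf2-family ATPase, serves repair of transcribed strands. Strains lacking the core incision factors are known for their sensitivity to ultraviolet light and cross-linking agents such as cisplatin.

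The strains described here were the deletions of these 10 genes, taken by systematic name from the table of tag intensities. They were RAD1 (YPL022W), RAD10 (YML095C), RAD2 (YGR258C), RAD14 (YMR201C), RAD4 (YER162C), RAD23 (YEL037C), RAD33 (YML011C), RAD7 (YJR052W), RAD16 (YBR114W) and RAD26 (YJR035W). Each gene was represented by 1 strain, so the group was 10 of 5179 strains and 19 of 10198 tags. A tag is one of the barcodes that flank the deletion cassette, an uptag on one side and a downtag on the other. RAD33 had an uptag only, and the other 9 strains had both.

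Pools of Saccharomyces cerevisiae deletion strains were grown in competition and each strain was followed by its tags on a TAG4 microarray. YKO_aux is the diploid homozygous deletion collection in BY4743, auxotrophic for histidine, leucine and uracil (homozygous for his3Δ1, for leu2Δ0 and for ura3Δ0, and heterozygous at LYS2 and at MET17). PB_prot is the haploid MATa collection in BY4741 (his3Δ1 leu2Δ0 met17Δ0 ura3Δ0) made prototrophic with the single-copy pHLUM plasmid. BC_prot is a haploid MATa collection made prototrophic by backcrossing (can1Δ::STE2pr-SpHIS5 his3Δ1 lyp1Δ0). Each collection was 1 pool, and each deletion in it 1 strain, so a second mutation in a strain could not be told apart from its deletion. The study's methods describe the replicates of a condition as biological and from independent experiments.

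The pools were grown for 5 generations. Cisplatin was used at 200 µM in rich medium (YPD), with 3 arrays in YKO_aux, 4 in PB_prot and 4 in BC_prot, against 8, 9 and 9 YPD arrays without drug. YPG, rich medium with 3% glycerol, was compared with YPD. The uncouplers CCCP (32 µM) and FCCP (6 µM) and a quinolone (125 µM) were compared with YPD holding 2% DMSO. Synthetic media lacking 1 nutrient (HIS-, LEU-, URA- and others) and minimal medium (MM) were compared with synthetic complete medium (SC). The MM given to YKO_aux was supplemented for its auxotrophies.

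The measure was the fitness defect (FD) score, the median log2 intensity of a tag in control arrays minus its log2 intensity in a treated array. A positive score means that the strain became rarer than in the control, and a score of 1 is a halving of the signal. The median over treated arrays is given ± SD over those arrays. A tag counted as present when it lay above the background threshold of its set in every control array. A strain was called when its median FD score was at least 1 and its adjusted p was under 0.05 by limma, adjusted by the Benjamini-Hochberg method across every strain in the test. All adjusted p values below come from limma. The variance of a strain was shared by all arrays in a fit, including those of other conditions. Some strains varied more in cisplatin, as RAD1 in BC_prot (SD 1.71 over cisplatin arrays and 0.29 over YPD arrays). Others varied less, as RAD33 in YKO_aux (0.06 and 0.26). The p values and confidence intervals therefore do not measure the spread of the cisplatin arrays alone. The main reading tested strains whose every tag was present. The wider reading tested strains with at least 1 present tag, on that tag.

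In the wider reading all 10 strains could be tested in PB_prot and BC_prot, and all but RAD4 in YKO_aux. In the YPD sets every tag was present for 4 of the 10 strains in YKO_aux, 5 in PB_prot and 4 in BC_prot. They were RAD1, RAD14, RAD33 and RAD7 in YKO_aux, RAD1, RAD2, RAD4, RAD33 and RAD16 in PB_prot, and RAD1, RAD33, RAD7 and RAD16 in BC_prot. Some uptags were dim in the prototrophic pools from the start. The RAD23 uptag averaged 9.11 ± 0.14 (SD, n = 5) in the YKO_aux starting pool, above that pool's threshold of 6.83 on every array. It averaged 5.35 ± 0.37 in the PB_prot pool (threshold 7.52) and 5.27 ± 0.31 in the BC_prot pool (threshold 6.82), below it on every array (n = 5 each).

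The RAD26 uptag had the same pattern, at 8.33 ± 0.22 in YKO_aux, 5.31 ± 0.44 in PB_prot and 5.23 ± 0.37 in BC_prot (SD, n = 5 each). The downtags of both strains were bright in all 3 pools, at 9.60 or more on average. These strains were therefore present in the prototrophic pools and were read through 1 barcode there. The RAD14 uptag behaved likewise, at 8.68 ± 0.20 in YKO_aux and below the threshold on all 5 starting arrays of PB_prot (6.96 ± 0.53) and of BC_prot (6.04 ± 0.46).

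**Figure D1:**
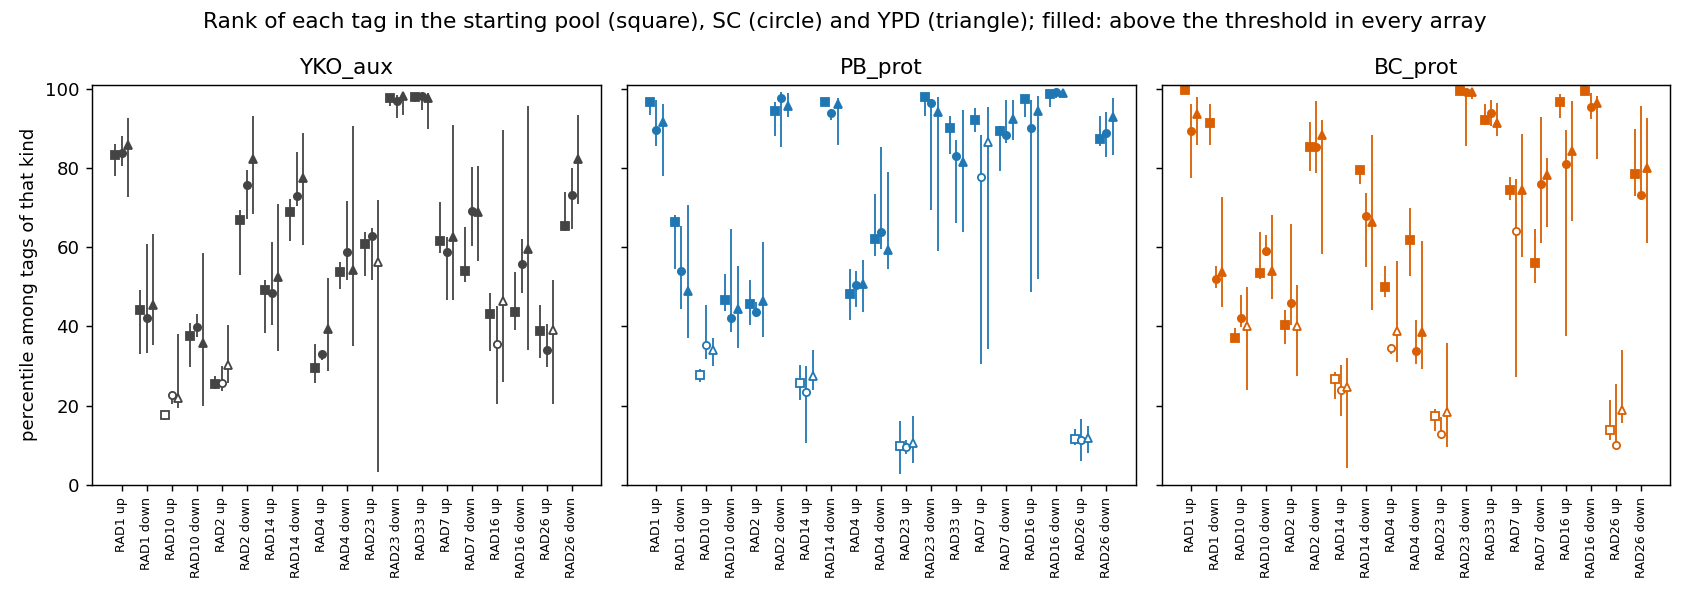
Percentile of each of the 19 tags among all tags of its kind (uptag or downtag), by collection. Symbols are medians over arrays of the starting pool, SC and YPD, lines run from the lowest to the highest array, and open symbols mark tags below the threshold in at least 1 array. The RAD23 and RAD26 uptags start at percentiles 60.9 and 38.7 in YKO_aux, 9.67 and 11.5 in PB_prot and 17.3 and 13.8 in BC_prot.

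RAD4, the damage recognition factor, ranked lower in BC_prot after growth than in the starting pool. Its downtag lay at a median percentile of 61.9 in the starting pool, 33.9 in SC and 38.5 in YPD, and its uptag at 50.0, 34.5 and 38.8. In PB_prot the uptag lay at 48.2, 50.4 and 50.7, with no such drop. RAD1 ranked high everywhere on its uptag, at 83.2 in YKO_aux, 96.7 in PB_prot and 99.6 in BC_prot in the starting pools. Percentiles are given because the starting pools, SC and YPD arrays were normalised in separate batches, and these ranks were not tested.

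In cisplatin the strains lacking the core incision factors fell in all 3 collections. RAD1, RAD10, RAD2 and RAD14 were called in YKO_aux, PB_prot and BC_prot, with median FD scores from 1.72 to 4.63. RAD4 was called in PB_prot and BC_prot, and in YKO_aux where no presence filter was applied (0.772% of all strains called). RAD23 scored between these and the rest in YKO_aux and PB_prot, and just above RAD4 in BC_prot. RAD33, RAD7, RAD16 and RAD26 scored under 1 except for RAD7 in YKO_aux, which was called (1.30).

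In the wider reading 6 of 9 strains were called in YKO_aux, 5 of 10 in PB_prot and 6 of 10 in BC_prot. Over all strains tested in that reading, 0.993%, 1.32% and 1.54% were called. The median FD score of the tested NER strains was 1.85, 1.49 and 1.19, against 0.02, -0.08 and -0.05 over all strains. Where every tag had to be present, 3 of 4 were called in YKO_aux, 3 of 5 in PB_prot and 1 of 4 in BC_prot, against 0.865%, 1.11% and 1.23% of all strains. No NER strain rose by the same thresholds in either reading, where 0.0509%, 0% and 0.0521% of all strains did in the wider one.

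**Figure D2:**
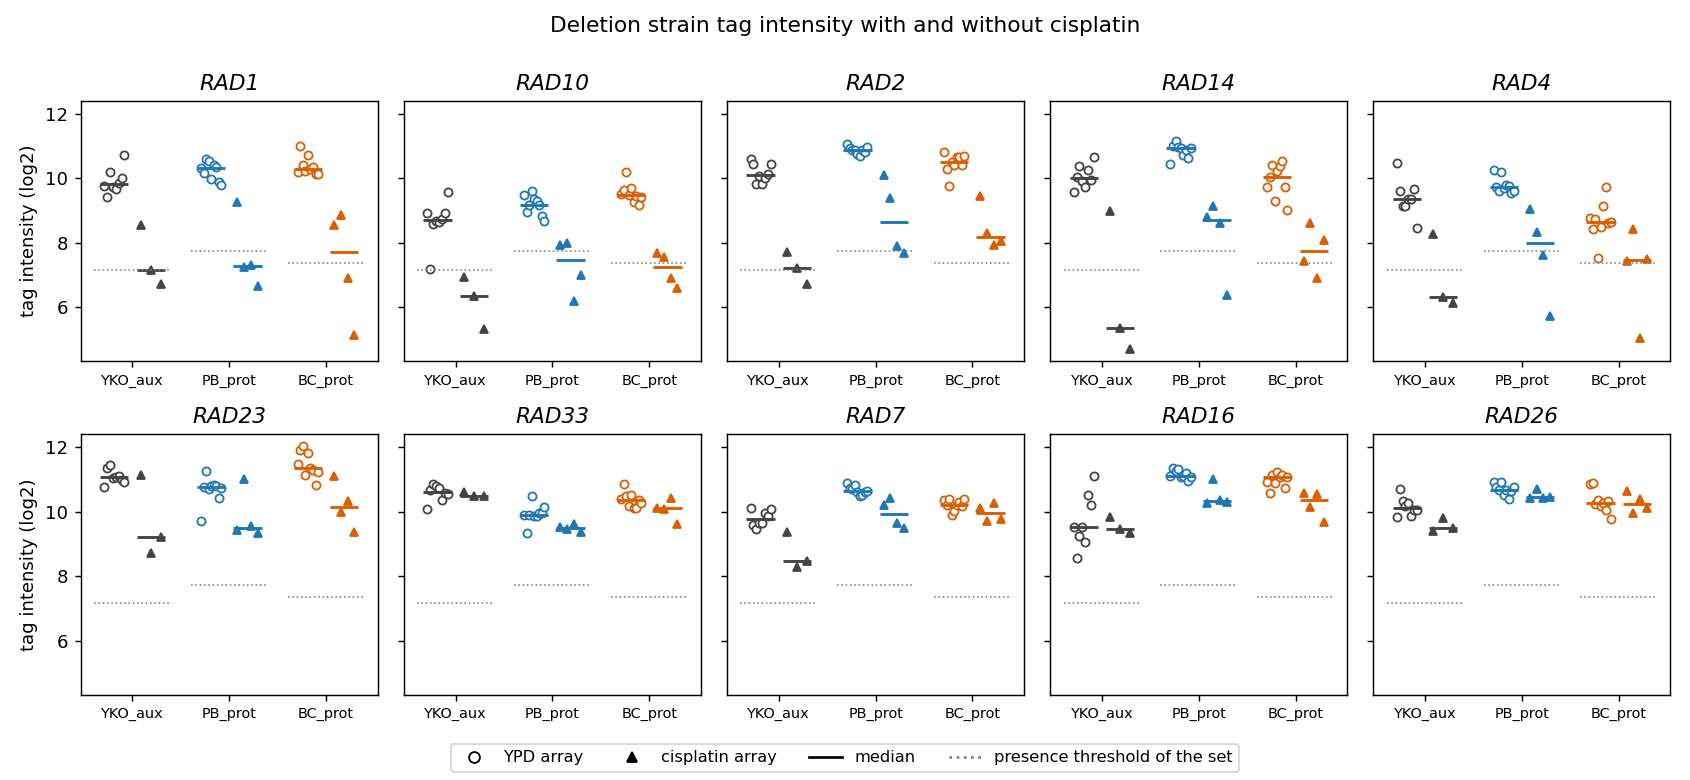
Log2 tag intensity of each deletion strain on every YPD array (open circles) and every cisplatin array (filled triangles), with the median as a bar and the presence threshold of the set as a dotted line. The tag drawn is the one tested. In the upper row, the core factors, cisplatin arrays lie below all YPD arrays except for 1 array of RAD4 in BC_prot.

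The nuclease subunit RAD1 was the most depleted strain of all those called in PB_prot. Its uptag ran from 9.78 to 10.60 (median 10.30) on the 9 YPD arrays of PB_prot and read 9.25, 7.24, 7.31 and 6.65 in cisplatin. In BC_prot it ran from 10.14 to 11.01 (median 10.29) in YPD and read 8.54, 8.87, 6.91 and 5.14. In YKO_aux it ran from 9.42 to 10.73 (median 9.81) in YPD and read 8.56, 7.16 and 6.73. The groups did not overlap in any collection. The FD score was 2.65 ± 0.95 (SD, n = 3, adjusted p = 3.84e-09) in YKO_aux, 3.03 ± 1.13 (n = 4, adjusted p = 1.15e-09) in PB_prot and 2.56 ± 1.71 (n = 4, adjusted p = 2.63e-09) in BC_prot by limma. Its downtag gave 2.92, 2.78 and 2.38.

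RAD10, the partner subunit of that nuclease, fell by similar amounts. Its downtag read 6.95, 6.34 and 5.33 in cisplatin in YKO_aux, where YPD arrays ran from 7.20 to 9.57 (median 8.71). It read between 6.20 and 7.99 on the 4 arrays in PB_prot (YPD 8.67 to 9.61, median 9.18) and 7.69, 7.56, 6.91 and 6.60 in BC_prot (YPD 9.18 to 10.18, median 9.49). No cisplatin array reached the lowest YPD array. The FD score was 2.37 ± 0.82 (n = 3), 1.72 ± 0.85 (n = 4) and 2.26 ± 0.52 (n = 4), and the adjusted p by limma was at most 2.02e-06.

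RAD2, the nuclease of the 3′ side, had the smallest spread of the core strains in YKO_aux. Its downtag read 7.72, 7.22 and 6.73 there against YPD values of 9.82 to 10.61 (median 10.11), for an FD score of 2.89 ± 0.49 (SD, n = 3). In PB_prot it read 10.11, 9.38, 7.91 and 7.69 against 10.70 to 11.07 (median 10.88), and in BC_prot 9.44, 8.31, 7.93 and 8.06 against 9.78 to 10.83 (median 10.50). Both groups were apart in each collection. The scores were 2.23 ± 1.17 and 2.31 ± 0.69 (n = 4 each), with adjusted p of 2.63e-08 and 9.67e-11 by limma.

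RAD14, the zinc-finger protein that binds at the lesion, had the second largest FD score of all strains called in YKO_aux. Its downtag read 8.97, 5.37 and 4.69 there, against 9.58 to 10.65 in YPD, and the score was 4.63 ± 2.30 (SD, n = 3, adjusted p = 2.32e-07, limma). The first of these arrays gave a score of 1.03 and the other two 4.63 and 5.31. In PB_prot it read 8.80, 9.15, 8.60 and 6.37 against 10.45 to 11.16 (median 10.93), and in BC_prot 7.42, 8.60, 6.92 and 8.09 against 9.01 to 10.55 (median 10.03). The scores were 2.23 ± 1.26 and 2.27 ± 0.74 (n = 4 each), with no overlap of groups.

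RAD4, whose product recognises the distorted helix, had the widest spread among cisplatin arrays in PB_prot and was second to RAD1 in BC_prot. In PB_prot its downtag read 9.05, 8.34, 7.63 and 5.71 against 9.54 to 10.26 (median 9.73) in YPD, for a score of 1.74 ± 1.43 (SD, n = 4, adjusted p = 1.30e-06, limma). In BC_prot it read 7.44, 8.43, 5.06 and 7.50 against 7.51 to 9.73 (median 8.66), and 1 cisplatin array lay within the YPD range. The BC_prot score was 1.19 ± 1.44 (n = 4, adjusted p = 0.00608, limma), and without cisplatin replicate 3 the adjusted p was 0.163. In YKO_aux the strain was not present by rule, because 1 of 9 DMSO arrays fell to 6.33 on the downtag. With no presence filter its score there was 3.04 ± 1.18 (n = 3, adjusted p = 0.00347, limma), from cisplatin values of 8.27, 6.32 and 6.13 against 8.45 to 10.49 in YPD. That call was lost without replicate 2 (adjusted p = 0.0873) or replicate 3 (0.0962), and with the replicate number as a block (2.37, adjusted p = 0.0844, limma).

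RAD23, a ubiquitin-like protein that stabilises Rad4, scored below every core strain in YKO_aux and PB_prot and close to RAD4 in BC_prot. In YKO_aux its downtag read 11.14, 8.73 and 9.23 in cisplatin against 10.76 to 11.47 (median 11.07) in YPD, so 1 array was not lowered at all. The YKO_aux score was 1.85 ± 1.27 (SD, n = 3, adjusted p = 0.00147, limma). In BC_prot it read 11.12, 9.99, 10.33 and 9.37 against 10.84 to 12.05, for 1.20 ± 0.73 (n = 4, adjusted p = 1.85e-05, limma). In PB_prot it read 9.44, 11.03, 9.57 and 9.33 against 9.73 to 11.26, and the score of 1.25 ± 0.80 (n = 4) missed the threshold at an adjusted p of 0.0550 (limma). Without the 1 high array, replicate 2, it passed at 1.31 with an adjusted p of 0.000649, and without YPD replicate 1 at 1.27 with 0.0118. In YKO_aux the call was lost without cisplatin replicate 2 (score 0.89, adjusted p = 0.144) or replicate 3 (0.0624).

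RAD7 and RAD16, which work together in repair of silent DNA, scored below every core strain in each collection. RAD7 was called in YKO_aux alone, where its downtag read 9.37, 8.29 and 8.46 against 9.46 to 10.11 (median 9.76). Its scores were 1.30 ± 0.58 (SD, n = 3, adjusted p = 0.000468) in YKO_aux, 0.71 ± 0.43 (n = 4, adjusted p = 0.000345) in PB_prot and 0.26 ± 0.27 (n = 4, adjusted p = 0.557) in BC_prot by limma. The YKO_aux score was 0.85 without cisplatin replicate 2 and 0.93 without replicate 3, under the threshold of 1.

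RAD16 scored 0.78 ± 0.36 in PB_prot and 0.71 ± 0.42 in BC_prot (n = 4 each), with adjusted p of 5.36e-05 and 0.000198 by limma, below the FD threshold in both. In BC_prot its downtag read 10.58, 10.16, 10.55 and 9.69, all under the YPD range of 10.59 to 11.23. In PB_prot it read 10.27, 11.03, 10.36 and 10.30, and the high array lay within the YPD range of 10.95 to 11.35. On its uptag in PB_prot, tested among all tags, it passed at 1.14 (adjusted p = 0.0325, limma). In YKO_aux it scored 0.05 ± 0.25 (n = 3), but its YPD arrays there ran from 8.56 to 11.12, a wider range than for any other NER strain in that collection.

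RAD33, which binds Rad4, scored 0.13 ± 0.06 (n = 3), 0.40 ± 0.10 (n = 4) and 0.26 ± 0.33 (n = 4) in YKO_aux, PB_prot and BC_prot. In PB_prot its adjusted p was 0.0419 (95% interval 0.18 to 0.71, limma), and 0.157 with the replicate number as a block. RAD26 scored 0.61 ± 0.21 (n = 3), 0.24 ± 0.13 (n = 4) and 0.00 ± 0.29 (n = 4). The 95% confidence intervals of the mean difference excluded a score of 1 for RAD33 in all 3 collections, with upper limits of 0.34, 0.71 and 0.59. For RAD26 the upper limits were 1.02, 0.41 and 0.40, so a change of 1 was within the interval in YKO_aux. In YKO_aux the 3 RAD26 arrays read 9.40, 9.80 and 9.51, all under the YPD range of 9.84 to 10.72, with an adjusted p of 0.173 (limma).

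Ordered by median FD score, the strains ran RAD14, RAD4, RAD2, RAD1, RAD10, RAD23, RAD7, RAD26, RAD33 and RAD16 in YKO_aux. The order was RAD1, RAD2, RAD14, RAD4, RAD10, RAD23, RAD16, RAD7, RAD33 and RAD26 in PB_prot. In BC_prot it was RAD1, RAD2, RAD14, RAD10, RAD23, RAD4, RAD16, RAD7, RAD33 and RAD26. Neighbours within the core group had overlapping 95% intervals in every collection, so their order was not resolved. All cisplatin arrays lay below all YPD arrays for 7, 6 and 5 of the 10 strains in YKO_aux, PB_prot and BC_prot, and this held for 1.91%, 1.47% and 1.38% of all strains in the wider reading.

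Both barcodes of a strain gave a check within each array. Tested singly among all 10198 tags, 12 of the 19 NER tags were called in YKO_aux, 11 in PB_prot and 10 in BC_prot, against 0.686%, 1.05% and 1.02% of all tags. Both tags of RAD1, RAD10, RAD2 and RAD4 were called in all 3 collections. Both RAD14 tags were called in YKO_aux (4.63 and 2.80) and PB_prot (2.23 and 1.39). In BC_prot the RAD14 uptag, at background without drug, gave 0.52 and was not called. For RAD7 and RAD23 in YKO_aux the downtag was called and the uptag was not. The uptags gave 0.76 (adjusted p = 0.396, limma) and 1.94 (adjusted p = 0.0921, limma).

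Core strains often fell below the presence threshold in cisplatin. The thresholds of the YPD sets were 7.16, 7.73 and 7.37 in YKO_aux, PB_prot and BC_prot. The mean background signal lay lower, at 5.84, 6.07 and 5.83. In cisplatin RAD10 lay below the presence threshold on 3 of 3 arrays in YKO_aux and on 2 of 4 in both PB_prot and BC_prot. RAD1 did so on 1 of 3, 3 of 4 and 2 of 4, and RAD14 on 2 of 3, 1 of 4 and 1 of 4. For RAD2 the counts were 1 of 3, 1 of 4 and 0 of 4, and for RAD4 2 of 3, 2 of 4 and 1 of 4. RAD23, RAD33, RAD7, RAD16 and RAD26 lay below the threshold on none. Scores of core strains near background may understate the depletion, which was not tested.

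Cisplatin arrays of a collection differed in strength. Over the called strains outside the NER group, the median score per array was 0.89, 2.39 and 2.09 in YKO_aux, 0.98, 1.10, 1.84 and 2.02 in PB_prot and 0.99, 1.27, 1.72 and 2.64 in BC_prot. The weakest array was replicate 1 in each, and in YKO_aux it also gave the lowest score of RAD14, RAD1, RAD4, RAD10, RAD2, RAD23 and RAD7. Without it the YKO_aux score of RAD14 was 4.97 and that of RAD1 was 2.87. Without replicate 2 they were 3.17 and 2.17, and without replicate 3 they were 2.83 and 1.95, and both strains stayed called in each case. The part of array strength in the spread between replicates was not tested.

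The collections were then compared by the difference of their cisplatin effects. In the main reading 1 NER strain differed: RAD7 fell by 0.84 log2 units more in YKO_aux than in BC_prot (95% interval 0.38 to 1.31, adjusted p = 0.0466, limma), where 1.12% of 1780 shared strains differed. The adjusted p was 0.0577 in the wider reading, and the call was lost without YKO_aux cisplatin replicate 2 or 3 or BC_prot replicate 1 or 3. In the main reading 1.48% of shared strains differed between YKO_aux and PB_prot and 0.666% between PB_prot and BC_prot. In the wider reading, in the order YKO_aux and PB_prot, YKO_aux and BC_prot, PB_prot and BC_prot, none of 9, 9 and 10 shared NER strains differed at an adjusted p under 0.05, while 3, 4 and 1 had an unadjusted p under 0.05. Of all shared strains 1.02%, 0.972% and 0.76% differed at the adjusted limit. At the unadjusted limit 400 of 3523, 305 of 3394 and 289 of 3553 did.

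The intervals left room for sizeable differences. RAD14 fell by 1.55 more in YKO_aux than in BC_prot (95% interval 0.53 to 2.56, adjusted p = 0.180) and by 1.09 more than in PB_prot (0.07 to 2.12, adjusted p = 0.408) by limma. RAD2 fell by 0.91 and 0.84 more (0.34 to 1.49 and 0.16 to 1.52). RAD1 differed by -0.58 between YKO_aux and BC_prot (-1.44 to 0.29) and by -0.17 between YKO_aux and PB_prot (-0.90 to 0.56).

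Outside cisplatin few tests of the NER strains passed. In YKO_aux 15 other comparisons and in BC_prot 18 gave 0 calls by limma in both readings. In the wider reading 3 tests in YKO_aux, 4 of 180 in BC_prot and 18 of 180 in PB_prot had an unadjusted p under 0.05. Fewer tests were made in YKO_aux. The share of all strains at this unadjusted limit was not counted, so these counts do not set the NER strains of PB_prot apart. In PB_prot there were 4 calls in 18 comparisons, all of 1 strain. Over all strains and these comparisons pooled, 0.475%, 1.12% and 0.156% of tests were calls in YKO_aux, PB_prot and BC_prot in the main reading and 0.687%, 1.39% and 0.177% in the wider one. RAD1, RAD2 and RAD14 stayed between -0.57 and 0.42 in every other comparison of every collection, and RAD10 between -0.79 and 0.63, at its lowest in URA- in PB_prot and its highest in TRP- in YKO_aux. With CCCP, FCCP and the quinolone no NER strain was called.

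**Figure D3:**
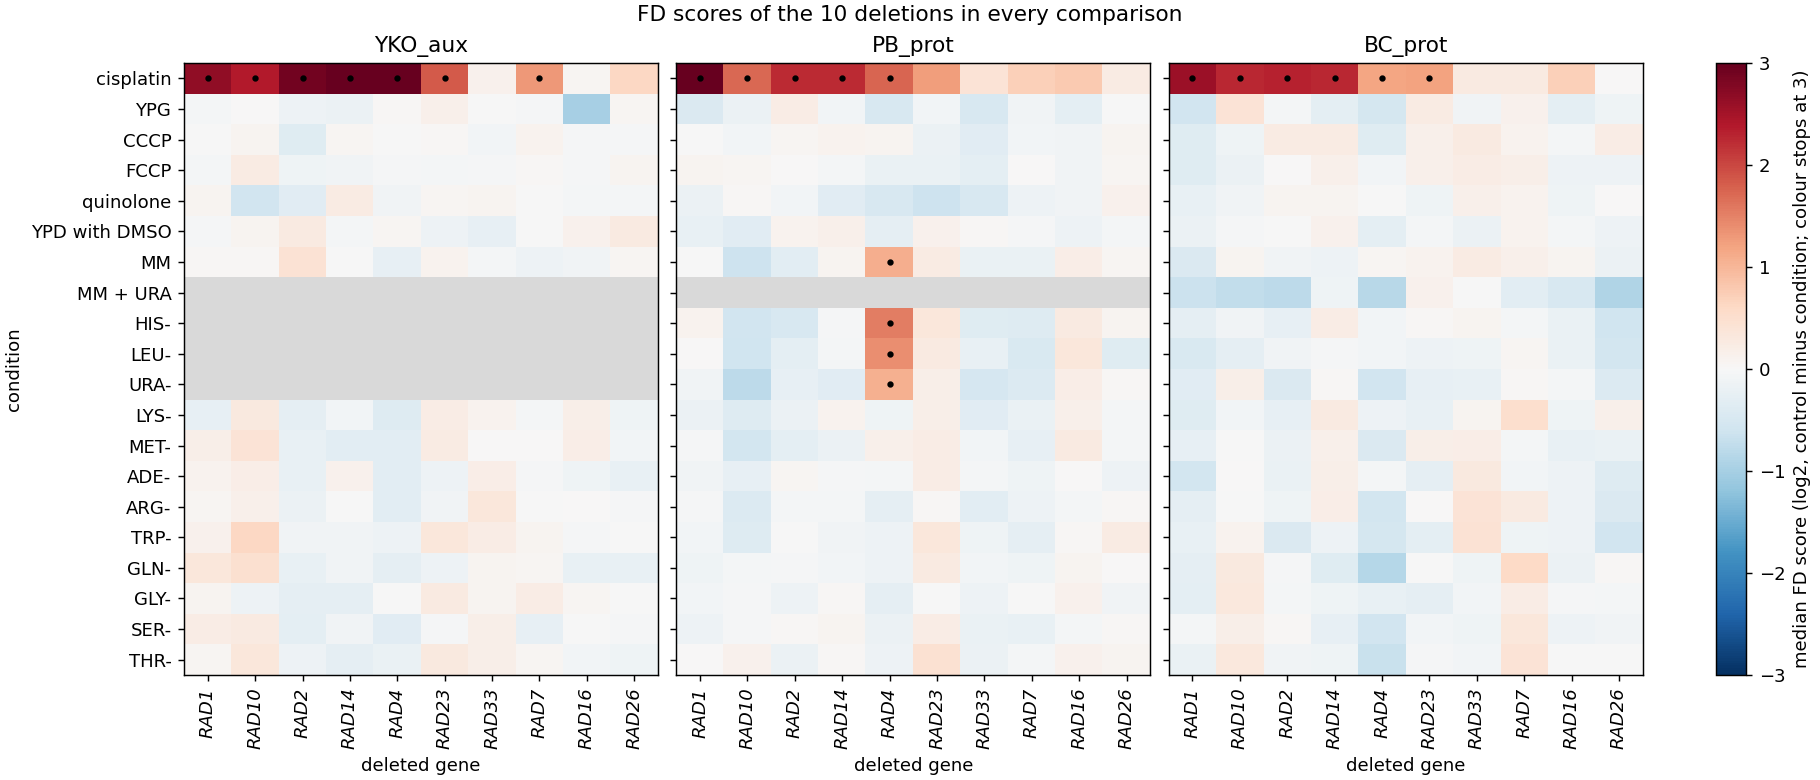
Median FD score (colour, log2) of the 10 deletions in each condition of each collection, with a dot where a strain was called (RAD4 in YKO_aux cisplatin with no presence filter). Grey marks conditions without arrays in that collection, and MM + URA is a single array with no test. Cisplatin gives calls in every collection, and the RAD4 strain of PB_prot gives the other 4.

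The exception was RAD4 in PB_prot. It fell in HIS-, LEU-, URA- and MM. pHLUM carries HIS3, LEU2 and URA3 with MET17. In MET- the strain was not called, where 0.182% of all strains were. The paper reports a PB_prot fitness signature shared by HIS-, LEU- and URA- and not seen in MET-. The RAD4 uptag read 9.01, 9.12, 8.92 and 8.65 in SC. It read 8.09, 7.44 and 6.82 in HIS-, 7.57, 8.54 and 6.21 in LEU-, 8.15, 7.90 and 7.63 in URA-, and 7.90, 7.93, 7.19 and 7.86 in MM. No array of these 4 media reached the lowest SC array. In MET- the uptag read 8.88, 8.81 and 8.47, with 2 of the 3 arrays inside the SC range, and the score was 0.15 ± 0.22 (SD, n = 3, adjusted p = 1.00, limma). The downtag read 10.01, 9.63 and 9.55 there, with 1 array inside the SC range, and scored 0.30 ± 0.24 (SD, n = 3).

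The RAD4 scores were 1.53 ± 0.64 (SD, n = 3, adjusted p = 0.00121) in HIS-, 1.39 ± 1.17 (n = 3, adjusted p = 0.000878) in LEU-, 1.06 ± 0.26 (n = 3, adjusted p = 0.0359) in URA- and 1.08 ± 0.36 (n = 4, adjusted p = 0.00222) in MM by limma. Over all strains 1.91%, 2.19%, 1.64% and 3.78% were called in these 4 media. The 4 comparisons share their SC arrays. RAD4 was the only NER strain called in any of them.

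The downtag of RAD4 behaved the same way. It read 10.47, 9.88, 9.78 and 9.96 in SC, 9.44, 7.71 and 8.30 in HIS-, 8.28, 9.09 and 8.32 in LEU-, 9.47, 8.20 and 9.07 in URA- and 9.37, 8.63, 8.62 and 8.66 in MM. Tested among all tags, the uptag and downtag passed in HIS-, LEU- and MM with adjusted p of at most 0.00982, and neither passed in URA- (0.0906 and 0.0785, limma). Of all tags 1.27%, 1.64%, 3.28% and 1.25% passed in HIS-, LEU-, MM and URA-. In the other 9 dropout media of PB_prot, MET- among them, the RAD4 uptag scored between -0.27 and 0.15. The URA- call was lost without SC replicate 1, 2 or 3 or without URA- replicate 2 or 3 (adjusted p up to 0.143), and LEU- scored 0.91 without LEU- replicate 3. These fits had no replicate term. With replicate number as a block, adjusted p by limma was 3.45e-05 in HIS-, 2.44e-05 in LEU-, 0.00252 in URA- and 5.73e-05 in MM.

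**Figure D4:**
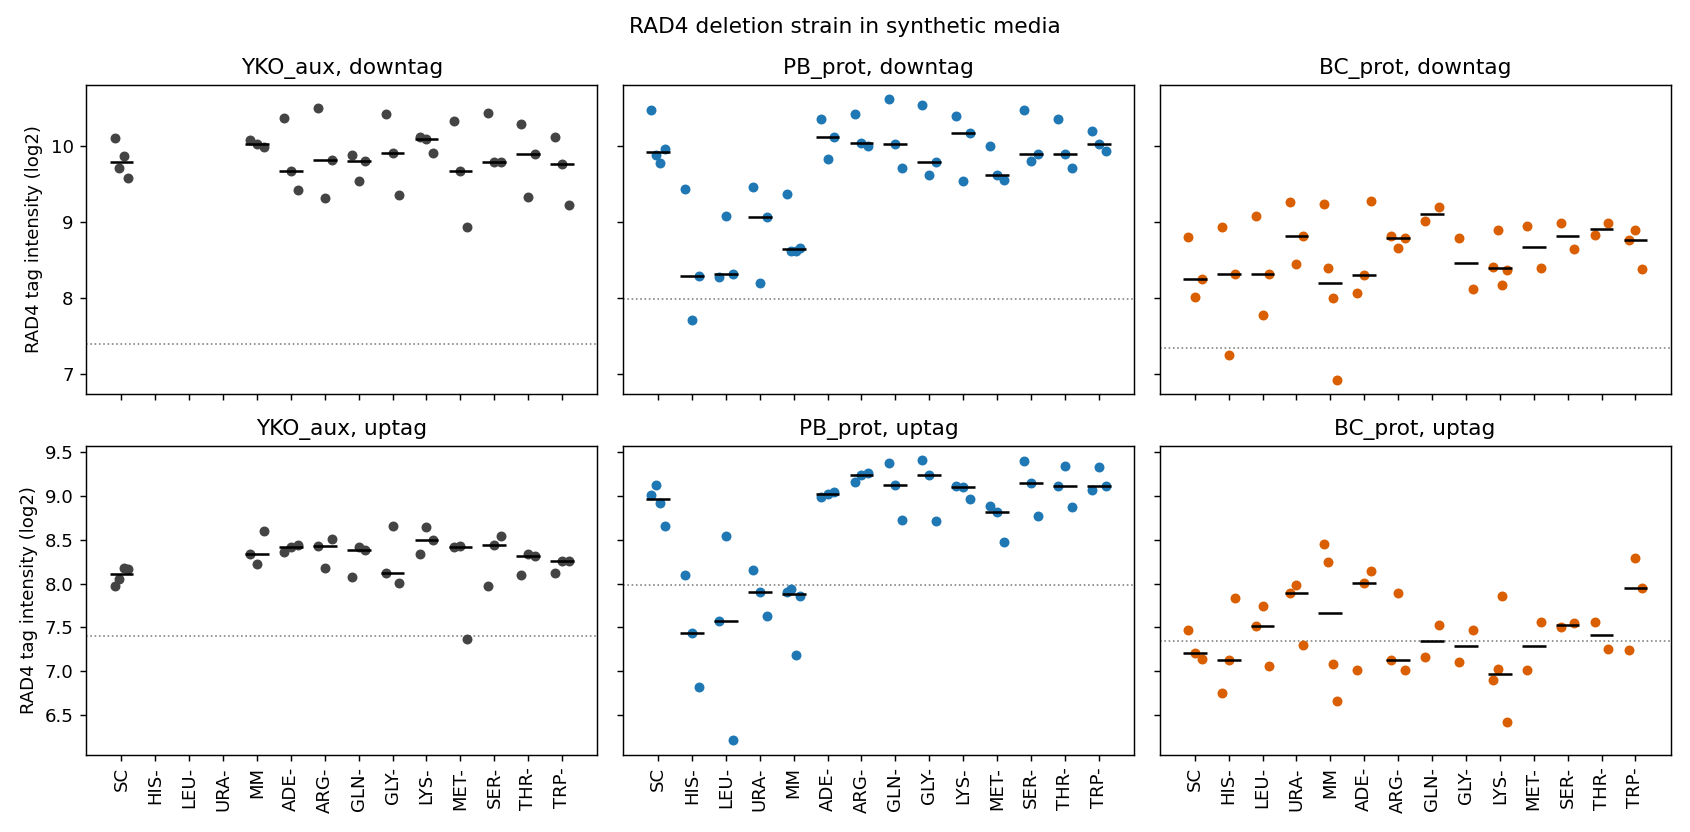
Log2 intensity of the RAD4 downtag (upper row) and uptag (lower row) on every array in synthetic media, with the median of each condition as a bar and the presence threshold as a dotted line. In PB_prot every array of HIS-, LEU-, URA- and MM lies below every SC array on both tags, while in BC_prot and, for MM, in YKO_aux they overlap or lie above.

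RAD4 gave scores of -0.07, -0.08, -0.57 and 0.05 in HIS-, LEU-, URA- and MM in BC_prot on its downtag, and -0.23 in MM in YKO_aux on its uptag. On the BC_prot uptag the scores were 0.08, -0.31, -0.68 and -0.45, with 2 of 3 SC arrays below the presence threshold. The difference between YKO_aux and PB_prot in MM was -1.50 (95% interval -2.22 to -0.78, adjusted p = 0.00368, limma), with 5.12% of 3714 shared strains differing. These media differed in supplements between the 2 collections. The PB_prot minus BC_prot differences were 1.29, 1.52, 1.52 and 0.99 in HIS-, LEU-, URA- and MM. They set the PB_prot uptag against the BC_prot downtag, in a fit without a replicate term. None passed over 3678 shared strains (adjusted p from 0.229 to 0.480), and all had unadjusted p from 0.00479 to 0.0454. Of these strains 0.788%, 1.14%, 0.843% and 2.88% differed.

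In YPG the RAD16 strain of YKO_aux had the lowest score of any NER strain there, without passing the test. Its score was -0.99 ± 0.11 on the downtag and -1.23 ± 0.02 on the uptag (SD, n = 2 each), with adjusted p of 0.502 and 0.545 by limma among all tags. The downtag YPD arrays there spanned 8.56 to 11.12, with replicates 1 to 5 at 9.54 or less and replicates 6 to 8 at 10.22 or more. On the uptag the same replicates read 8.71 or less and 9.50 or more. Both YPG scores were taken from the median of all these YPD arrays, and the part of this split in them was not tested. The downtag scores were -0.29 ± 0.10 in PB_prot and -0.30 ± 0.13 in BC_prot, and the uptag scores -0.47 ± 0.08 and -0.68 ± 0.11 (n = 4 each).

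Other DNA repair strains gave a measure of where the NER strains stood in cisplatin. Of 60 other repair genes on the lists, 45, 48 and 46 strains were tested in the wider reading in YKO_aux, PB_prot and BC_prot, and 18, 15 and 19 were called. The PB_prot count holds 2 strains of MMS4. Among 7 further NER genes, ELC1, a component of the ubiquitin ligase that holds Rad7 and Rad16, was called in BC_prot (1.62) and not in YKO_aux (0.73) or PB_prot (0.48). RAD28 and RAD34, relatives in yeast of human CSA and of RAD4, scored between -0.30 and 0.27. TFB5 (0.83) and MET18 (0.72), tested in PB_prot alone, and DEF1 (0.66), tested in BC_prot alone, scored higher and were not called. Of the partners of Rad1-Rad10, SLX4 was called in YKO_aux (1.43) and not in PB_prot (0.62) or BC_prot (0.68), and SAW1 scored 0.16 to 0.37.

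**Figure D5:**
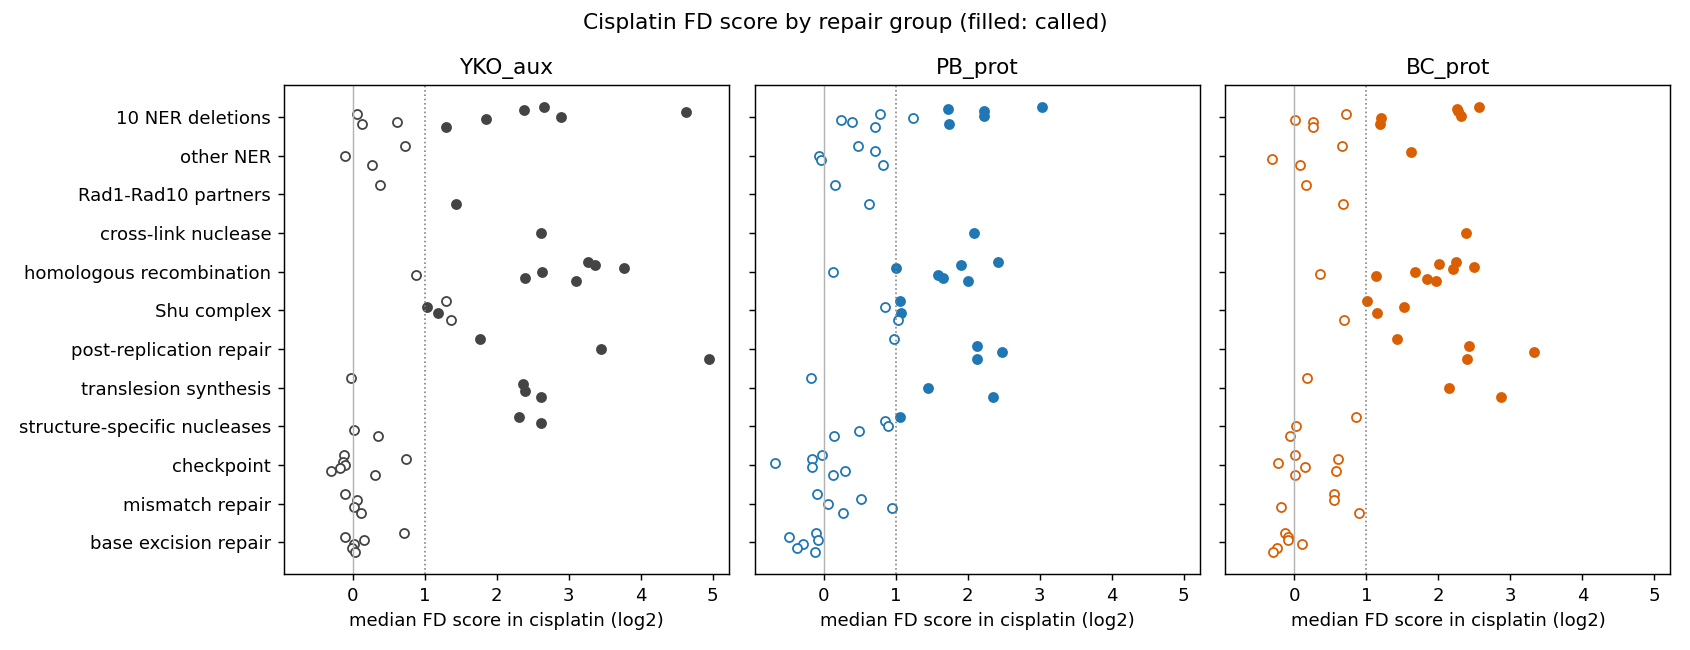
Median cisplatin FD score (log2) of each tested strain by repair group and collection, filled where called, with a dotted line at the threshold of 1. The called NER strains overlap the homologous recombination, post-replication repair and translesion synthesis strains, with RAD1 of PB_prot (3.03) above all of these in that collection, and no base excision repair, mismatch repair or checkpoint strain is called.

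PSO2, the cross-link repair nuclease, scored 2.61, 2.09 and 2.38 in the 3 collections and was called in each. RAD5 of post-replication repair led YKO_aux (4.94) and BC_prot (3.32) and was the second in PB_prot (2.47), behind RAD1. RAD18 was called in all 3 collections, MMS2 in YKO_aux and BC_prot, and UBC13 in PB_prot and BC_prot, where it was tested. The translesion polymerase genes REV1 and REV3 were called in all 3, from 1.45 to 2.87, and REV7 in YKO_aux (2.61), where alone it was tested.

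Of the recombination genes RAD55, RAD59, SGS1 and SRS2 were called in all 3 collections. RAD57 was called in YKO_aux and BC_prot, SAE2 in PB_prot and BC_prot and RAD50 in BC_prot, in each case wherever it was tested. SHU1 of the Shu complex was called in all 3, with CSM2 in PB_prot and BC_prot and PSY3 in YKO_aux and BC_prot. MMS4 was called in YKO_aux (2.31) and in 1 of its 2 strains in PB_prot (1.06, the other at 0.85), and MUS81 in YKO_aux (2.61). RAD57 came next after RAD14 in YKO_aux (3.77). PCK1, a gluconeogenic enzyme and no repair gene, was the second in BC_prot (3.10), followed by REV3.

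The checkpoint, mismatch repair and base excision repair lists had 0 calls in every collection. MSH6 of mismatch repair came nearest, at 0.95 in PB_prot and 0.90 in BC_prot against 0.11 in YKO_aux.

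Strains were then ranked by the likeness of their FD profile to the median profile of RAD1, RAD2, RAD4, RAD10 and RAD14 (without RAD4 in YKO_aux), as Pearson's r over 16 comparisons in YKO_aux and 19 in each of PB_prot and BC_prot. The comparisons within a set share control arrays, and these values are a description. The 5 most alike outside the NER group were RAD5, SRS2, YBR099C, SGS1 and RAD55 in YKO_aux (0.98 to 0.97). They were REV3, PSO2, SRS2, UBC13 and MMS2 in PB_prot (0.97 to 0.95) and RAD18, UBC13, MSH6, PSO2 and UCC1 in BC_prot (0.97 to 0.96).

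These values rest on cisplatin, the only large response of the profile. Without cisplatin the same strains gave r between -0.15 and 0.38. Among the NER strains outside the core, RAD23 gave 0.93, 0.63 and 0.85 in YKO_aux, PB_prot and BC_prot, and RAD7 0.90, 0.89 and 0.05. RAD26 gave 0.71, 0.54 and 0.05. RAD4 in PB_prot gave 0.61, the lowest of the core strains there.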

How the data were processed

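The authors deposited 1 log2 intensity per tag and array from the Affymetrix TAG4 array, after masking of hybridization artefacts and median normalization of uptags and downtags within each of 6 sets (collection by SC or YPD medium). The 236 arrays held values from 3.61 to 14.67, used as deposited. The study's methods also name a ComBat batch correction, and whether the deposited values include it is not given in the sources used here. Labels of 2 BC_prot arrays contradict each other and these entered no comparison. The labels give 2 BC_prot LYS- and 2 YKO_aux GLN- arrays the same replicate number.

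A 2-component Gaussian mixture on the control arrays of each set gave the presence threshold (posterior 0.5). A strain was read on its steadiest present tag, judged by the coefficient of variation over control arrays. limma 3.58.1 (R 4.3.3) was fitted to each set with a mean for every condition. Tags were also tested singly, and collections compared in a joint fit. The fit of the main reading was tested on simulated data, for the cisplatin comparison of each collection. A tag near background may not show its full depletion, and array number limits the precision.

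Same-numbered treatment and control arrays deviated together (every correlation over 0.1 with at least 3 pairs) in 8 YKO_aux and 12 PB_prot dropout comparisons, and in none of cisplatin, MM or the other YPD-based comparisons. HIS-, LEU- and URA- in PB_prot are among them (0.38 to 0.71). The pairing comes from the data.

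The members, gene lists and tests were chosen with earlier results of these data known. Named genes were all 10 members, list members called in cisplatin in at least 1 collection, the 3 largest called cisplatin scores of each collection and the 5 strains most like the core profile. Some of these genes are not reported here. The media interactions of RAD4, the YPG values of RAD16 and the percentiles were chosen after the values were seen. Alternatives were other presence rules, a posterior of 0.9, the mean of tags, quantile normalization, pooled controls, a threshold of 1.5, a fit on cisplatin and YPD arrays alone, a replicate block and leaving out each array.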

Additional observations from a re-analysis of the deposited data

Results flagged for a closer look

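In PB_prot, cisplatin replicate 2 stood apart from the other 3 arrays for 3 strains. It read 11.03 for RAD23 (others at most 9.57), 11.03 for RAD16 (others at most 10.36) and 10.70 for RAD26 (others at most 10.46), each on the downtag, and no core strain had such a gap there. Among YPD arrays, RAD10 read 7.20 on YKO_aux replicate 2, below the next at 8.58, and RAD2 read 9.78 on BC_prot replicate 3, below the next at 10.29. In all, 50 groups were examined for a single distant array and 5 had one, and chance alone flags about 1 in 20.

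The cisplatin effect of RAD7 was larger in YKO_aux than in BC_prot by 0.84 (adjusted p = 0.0466, limma), and the effect of MM on RAD4 differed between YKO_aux and PB_prot by -1.50 (adjusted p = 0.00368, limma). The causes were not tested.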

How the results depend on the processing

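The counts of called NER strains in cisplatin moved with the presence rule. In YKO_aux 3 were called with every tag present, 6 with at least 1 tag present or with the mean of controls above the threshold, and 7 with no filter. In PB_prot these were 3, 5 with at least 1 tag present and 5 with no filter, and in BC_prot 1, 6, 4 with the mean of controls and 6 with no filter, and 2 after quantile normalization. Fewer strains pass the stricter rules, so fewer can be called. The RAD7 difference between YKO_aux and BC_prot, 1 strain in the main reading, gave 0 with at least 1 tag present, the mean of tags or quantile normalization, and 0 to 1 when single arrays were left out. Leaving out single arrays gave 2 to 3 and 4 to 6 called strains in YKO_aux (main and wider readings), 3 and 5 to 6 in PB_prot, and 1 and 5 to 6 in BC_prot. With a replicate block the counts were 3, 3 and 1 in the main reading and 6, 5 and 6 in the wider one, and RAD4 in PB_prot kept 4 calls, with 1.51 in LEU-, 1.05 in URA- and 1.20 in MM. The block ended 1 call, that of RAD4 in YKO_aux (adjusted p = 0.0844, limma). RAD4 in BC_prot lost its call in a fit on cisplatin and YPD arrays alone (adjusted p = 0.0898) and after quantile normalization (0.98), and RAD23 in YKO_aux in that fit (adjusted p = 0.127). RAD23 in PB_prot passed after quantile normalization (1.36) and with pooled controls (1.24), and RAD16 in PB_prot with the mean of tags (1.08). RAD7 in YKO_aux scored 0.97 with the mean of tags. At a threshold of 1.5, RAD7 in YKO_aux and RAD4 and RAD23 in BC_prot lost their calls. RAD4 in URA- missed the threshold with no filter (adjusted p = 0.0535) and after quantile normalization (0.168). The causes were not tested. No direction of a called score reversed.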
